A study of Mus musculus with 12 samples.

Results

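Interleukins are secreted proteins through which immune cells signal to each other, and each acts through a receptor built from chains that several interleukins can share. The genes described here are the interleukins and interleukin receptors of a panel of 1448 genes, chosen as every symbol that begins with Il and a digit. Of 44 such symbols, 7 (Il10, Il1b, Il1rn, Il18, Il6, Il4ra and Il1rl1) were left out, which leaves 37 genes: 19 ligands, 17 receptor chains and 1 enzyme, Il4i1, an amino acid oxidase named for its induction by interleukin-4. Their transcripts were measured in the total RNA of macrophages from the mouse peritoneal cavity, phagocytes of the abdomen, with the NanoString nCounter, which counts barcoded probes bound to each transcript. The 4 groups of 3 mice were young untreated mice (3 to 4 months), young mice given PF-044, aged untreated mice (20 to 22 months) and aged mice given PF-044. PF-044 is an antagonist of EP2, a prostaglandin E2 receptor, and was given by oral gavage at 2.5 mg/kg per day for 6 weeks. Strain, sex and any vehicle given to the untreated mice are not stated in the sources used here, and the treated groups differ from the untreated ones by the agent as labelled.

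Most interleukin receptors pair a chain that binds a particular ligand with a chain shared by a family. The common gamma chain serves interleukins 2, 4, 7, 9, 15 and 21, the common beta chain serves interleukins 3 and 5, and gp130 serves interleukins 6, 11 and 27. These receptors have no enzymatic activity of their own and act through JAK kinases and STAT transcription factors, whereas the receptors of interleukin-1 and interleukin-18 act through Myd88 and Traf6. Macrophages both produce interleukins, such as the interleukin-12 family, and respond to others, among them interleukins 4, 6 and 10.

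Values are normalized expression on the log2 scale, as deposited, with a floor of 20 linear units (log2 of 20, or 4.32), and "at the floor" means that exact value. A bulk value cannot tell fewer cells of a type from less RNA per cell. Of 7 macrophage markers in the panel, 0 sat at the floor in all samples. Their summed linear level ran from 10669 to 11517 in young untreated mice, from 8043 to 9042 in young mice given PF-044, from 4735 to 5423 in aged untreated mice and from 7086 to 7879 in aged mice given PF-044. All 7 fell with age in untreated mice, and 6 rose with PF-044 in aged mice, beside 32.9% and 25.7% of all genes tested. Other cell types also gave signal, and their values stand beside the genes they touch. Aged untreated replicate 2 stood apart: its count equivalents, inferred from the spacing of the values, summed to 175127, against 533930 to 927614 in the other samples. It held 741 genes at the floor, against 333 and 527 in the other aged untreated mice and 404 to 467 in the other groups.

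The promoter sequences of 3 genes are printed because these genes had the largest changes that did not rest on values at the floor. They are Il5ra, the chain that binds interleukin-5, Il21r, the chain that binds interleukin-21, and Il12a, the p35 subunit of interleukin-12. Each stretch holds the 250 bases before an annotated transcript start, 5′ to 3′ on the strand of the gene, from RefSeq on mouse assembly GRCm38.p6. Capitals mark matches to the Stat6 motif, TTC and GAA with any 4 bases between them, which is palindromic and so was searched on both strands at once. Il12a has a pair of annotated starts, and both are shown.
Il5ra, chr6:106749038-106749287, minus strand: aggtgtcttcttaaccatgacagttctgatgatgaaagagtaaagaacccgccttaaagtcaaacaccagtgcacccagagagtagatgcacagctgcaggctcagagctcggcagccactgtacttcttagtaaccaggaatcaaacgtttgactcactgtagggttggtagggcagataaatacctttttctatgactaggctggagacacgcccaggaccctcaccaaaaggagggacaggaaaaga
Il21r, chr7:125603179-125603428, plus strand: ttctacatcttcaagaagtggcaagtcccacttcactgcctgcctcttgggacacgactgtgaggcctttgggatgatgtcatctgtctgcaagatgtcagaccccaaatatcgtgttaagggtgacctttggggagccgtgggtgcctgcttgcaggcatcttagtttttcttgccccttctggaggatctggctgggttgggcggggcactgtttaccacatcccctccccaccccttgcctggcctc
Il12a, upstream start, chr3:68690394-68690643, plus strand: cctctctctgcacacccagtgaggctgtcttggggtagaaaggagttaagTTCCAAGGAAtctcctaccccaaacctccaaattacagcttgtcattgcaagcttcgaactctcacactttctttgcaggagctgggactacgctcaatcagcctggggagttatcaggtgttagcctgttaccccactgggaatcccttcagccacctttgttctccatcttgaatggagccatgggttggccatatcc
Il12a, downstream start, chr3:68691174-68691423, plus strand: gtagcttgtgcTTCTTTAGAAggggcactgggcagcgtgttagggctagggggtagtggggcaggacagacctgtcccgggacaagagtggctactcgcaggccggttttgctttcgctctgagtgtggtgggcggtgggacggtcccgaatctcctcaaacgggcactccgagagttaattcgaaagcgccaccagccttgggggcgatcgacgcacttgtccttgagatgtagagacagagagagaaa
All 37 symbols matched a current RefSeq symbol, and 27 genes had 35 promoter windows, each running to 50 bases after the start. This motif occurred in 11 of these 35 windows, against 6.95% of 32851 windows of all genes. The 11 windows belong to 9 of the 27 genes, and 2 of them are overlapping windows of Il18r1 that hold the same site. The match in the Il5ra window, TTCAATAGAA, lies 27 bases after the start, and the Il12a windows hold TTCCAAGGAA 200 bases and TTCTTTAGAA 239 bases before theirs. The gamma-activated site TTCNNNGAA, with 1 base less between its arms, occurred in 3 member windows, those of Il18r1, Il1r2 and Il4, against 8.3% of all windows, and TGACGTCA, the cyclic AMP response element, in 0 of 35, against 1.79%. The Il21r window held no match to any of the 3 motifs. A match describes the letters and is not a site of binding.

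More ligands than receptors were at the floor. Of the 37 genes, 11 sat at the floor in all 12 samples (29.7%, against 17.8% of all 1448 genes): 9 of 19 ligands and 2 of 17 receptors. The ligands were Il3, Il5, Il11, Il12b, Il17a, Il22, Il25, Il27 and Il33. The receptors were Il1r2, the decoy receptor of interleukin-1, and Il22ra2, the soluble decoy of interleukin-22. Above the floor in every sample were 8 genes (21.6%, against 48.8% of all genes), namely the ligand Il12a and the receptors Il5ra, Il6ra, Il10ra, Il10rb, Il17ra, Il1rap and Il21r. The other 18 were at the floor in some samples. Per sample, 19 to 23 of the 37 genes were above the floor in young untreated mice, 22 or 23 in young mice given PF-044 and 19 to 22 in aged mice given PF-044. The aged untreated mice had 24, 8 and 15, so this group alone spanned both extremes.

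**Figure D1:**
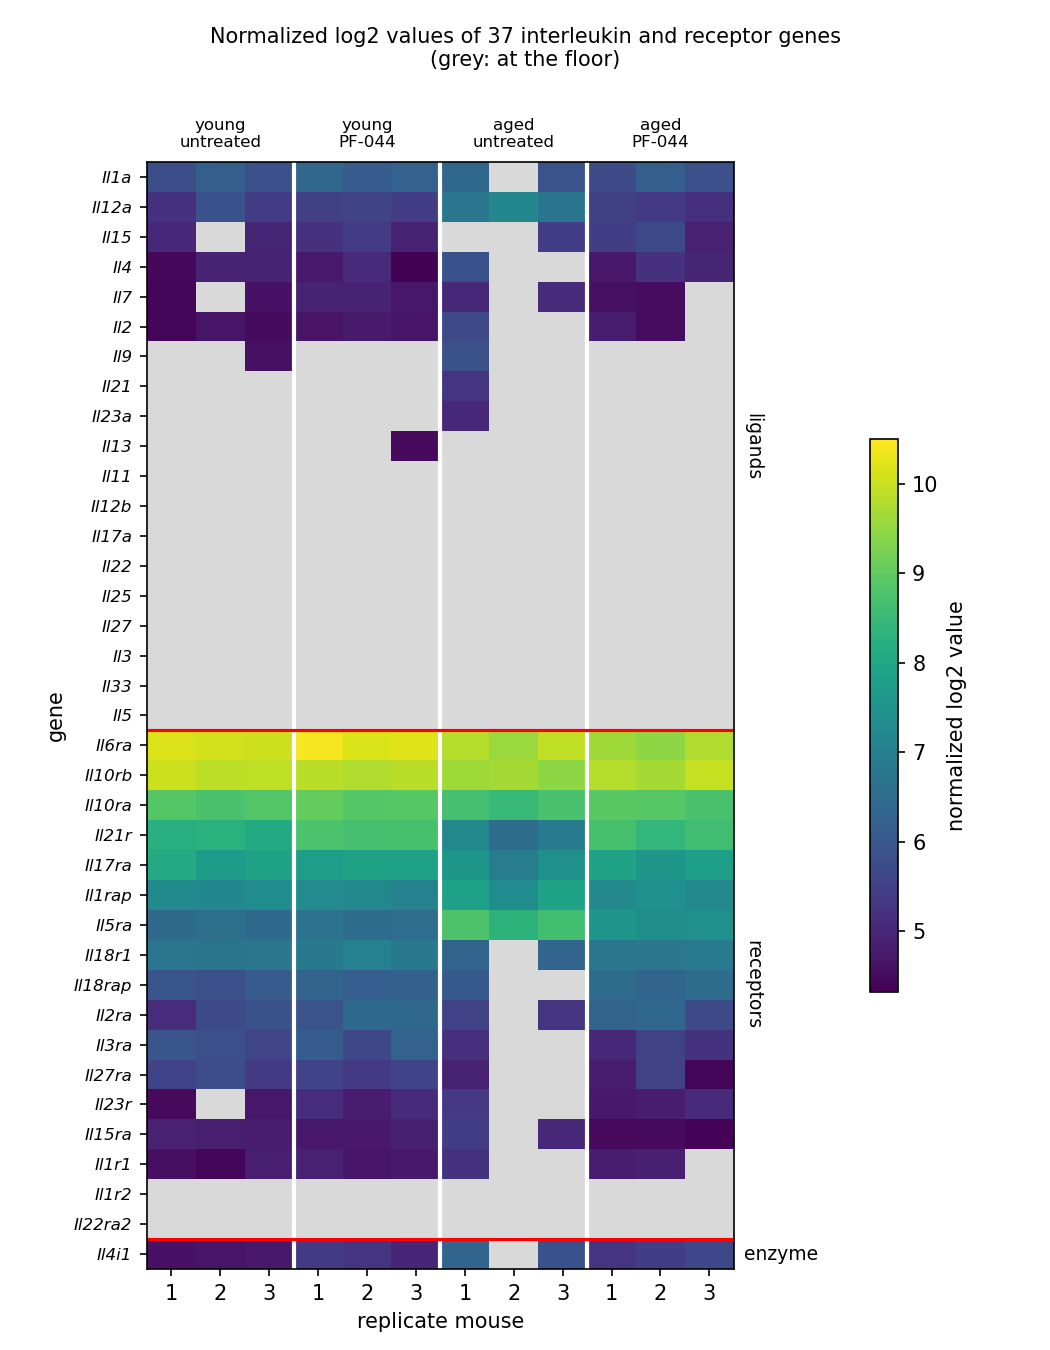
Normalized log2 expression (colour) of the 37 genes (rows; ligands, receptors and the enzyme Il4i1, divided by red lines) in the 12 mice (columns), with grey cells at the floor. Aged untreated replicate 2 has 8 coloured cells, against 24 and 15 in the other aged untreated mice.

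The floor carries a different meaning in each sample. On the linear scale, a sample's values are spaced by a fixed step, which was found for each of 3 sets of genes, and a value divided by its step gives a count equivalent. In aged untreated replicate 2 the steps were 3.80, 4.65 and 4.57 linear units, and the lowest count equivalent above the floor was 20 in each set, so counts under 20 appear as the floor. A gene at the floor in this mouse was therefore only below 6.25, 6.54 or 6.51 on the log2 scale, depending on its set. Of the 26 genes tested, 18 were at the floor there. For 14 of these every other mouse also lay below that limit to the log2 digits given. For Il18rap too, the highest other value, 91.36 linear units, lay just below the limit of 91.42. Aged untreated replicates 1 and 3 had limits of 4.52 to 4.96 and of 4.72 to 5.19. In the other groups a step was between 0.74 and 1.34.

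**Figure D2:**
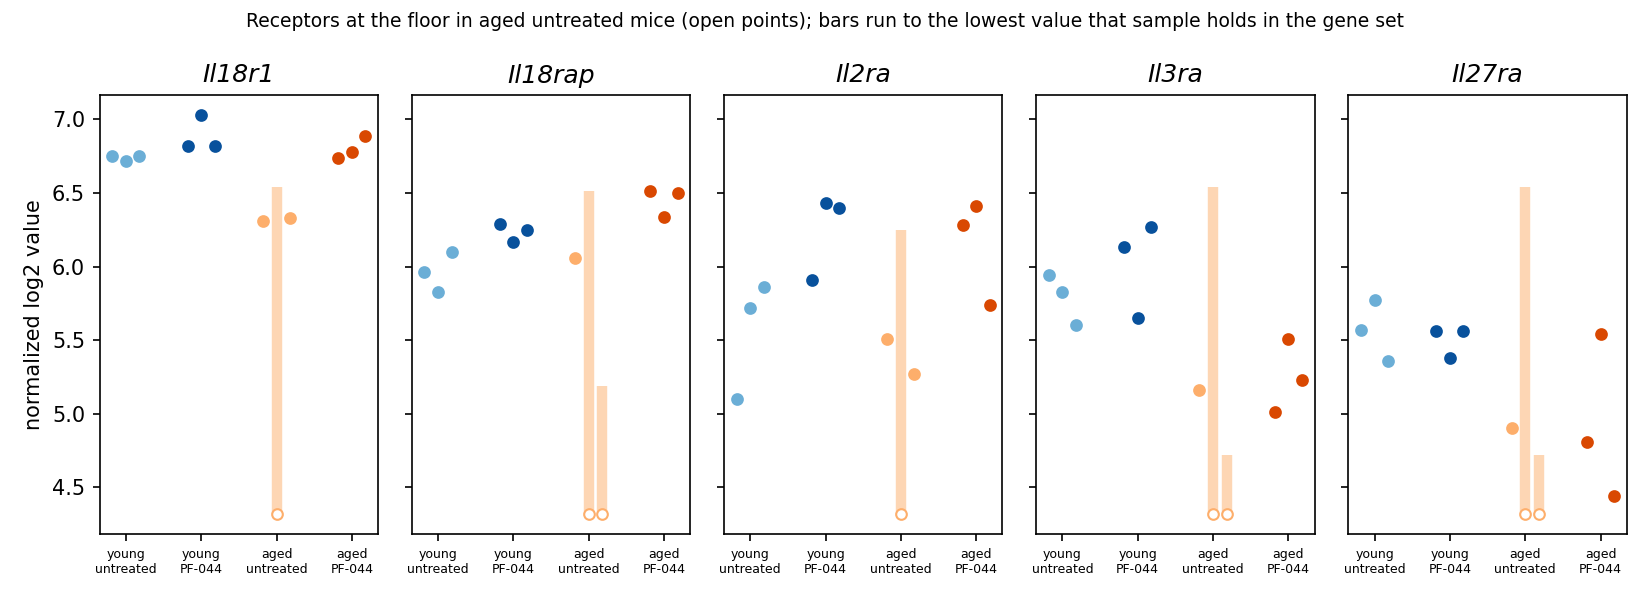
Normalized log2 expression of 5 receptors in each mouse by group (points; open points are at the floor), with bars from the floor to the lowest value above it that the sample holds in that gene set. The bars of aged untreated replicate 2 end between 6.25 and 6.54, above all points of Il3ra and Il27ra and below all points of Il18r1 outside the aged untreated group.

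Tests compared the groups with limma over the 1190 genes above the floor in at least 1 sample, and a gene passed at a Benjamini-Hochberg adjusted p of 0.05. With age in untreated mice, 11 of the 26 genes passed (42.3%, against 54.0% of all genes tested), 3 higher (background 21.2%) and 8 lower (background 32.9%). With PF-044 in aged mice, 9 passed (34.6%, against 40.9%), 7 higher (background 25.7%) and 2 lower (background 15.2%). PF-044 in young mice gave 1 call, Il21r, higher (3.85%, against 14.1%), with 8.4% of all genes higher and 5.71% lower. The effect of PF-044 differed between aged and young mice for 4 genes (15.4%, against 25.7%). Aged mice given PF-044 differed from young untreated mice for 2 genes (7.69%, against 34.5%). In both directions together these shares lie below the background in each comparison, so the counts are no result about interleukin genes as a class. The comparisons of age and of PF-044 in aged mice share the aged untreated mice.

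Ligands and receptors gave different counts. Of the 10 tested ligands, Il12a alone passed with age, and Il12a alone passed with PF-044 in aged mice. Among the 15 tested receptors, 2 rose (Il5ra, Il1rap) and 8 fell with age (Il21r, Il3ra, Il18r1, Il18rap, Il27ra, Il17ra, Il10rb, Il6ra). These are 13.3% and 53.3% of the receptors, beside 21.2% and 32.9% of all genes tested. With PF-044 in aged mice, 7 receptors rose (Il21r, Il18rap, Il18r1, Il2ra, Il17ra, Il10rb, Il10ra) and 1 fell, Il5ra, which are 46.7% and 6.67% beside 25.7% and 15.2% of all genes. The median change with age was 0.25 over ligands and -0.36 over receptors, against -0.07 over all genes tested. With PF-044 in aged mice the medians were -0.23, 0.24 and 0.02 in the same order. Both ligand medians lie between the changes of Il2 and Il23a. In the aged untreated group these ligands were above the floor in replicate 1 alone. Most ligand values were near the floor. Of the receptors that passed, Il18r1, Il18rap, Il2ra, Il3ra and Il27ra had values at the floor in aged untreated mice. With these set to their sample's lowest value above the floor, Il18rap, Il3ra and Il27ra did not pass with age. Il18rap and Il2ra then did not pass with PF-044 in aged mice, while Il18r1 passed in both. Whether ligands and receptors differ as classes was not tested. The split depended on the scaling. Centring each sample on 4 reference genes moved the median of all genes from -0.07 to 0.34 for age and from 0.02 to -0.21 for PF-044 in aged mice. With that centring 2 receptors rose and 3 fell with age, and 2 rose and 4 fell with PF-044 in aged mice; of the ligands, 6 rose with age. Il5ra, Il21r and Il12a kept their directions and their calls for both of these comparisons under each of 3 other scalings.

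Without aged untreated replicate 2 the counts were 12 for age (6 higher, 6 lower), 11 for PF-044 in aged mice (5 higher, 6 lower), 3 for PF-044 in young mice, 9 for the difference of effects and 5 for aged mice given PF-044 against young untreated mice. Of all genes tested, 55.5% then passed for age (23.5% higher, 31.9% lower), 43.0% for PF-044 in aged mice (24.5% higher, 18.5% lower), 19.9% for PF-044 in young mice (12.3% and 7.65%), 30.5% for the difference (16.2% and 14.3%) and 41.0% for the last comparison (17.6% and 23.4%). The totals that moved by over 1.5 times are those of PF-044 in young mice, of the difference and of the last comparison. By direction, the rises with age went from 3 to 6 and the falls with PF-044 in aged mice from 2 to 6. Of the receptors, 6 rather than 8 then fell with age, and 5 rather than 7 rose with PF-044 in aged mice.

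**Figure D3:**
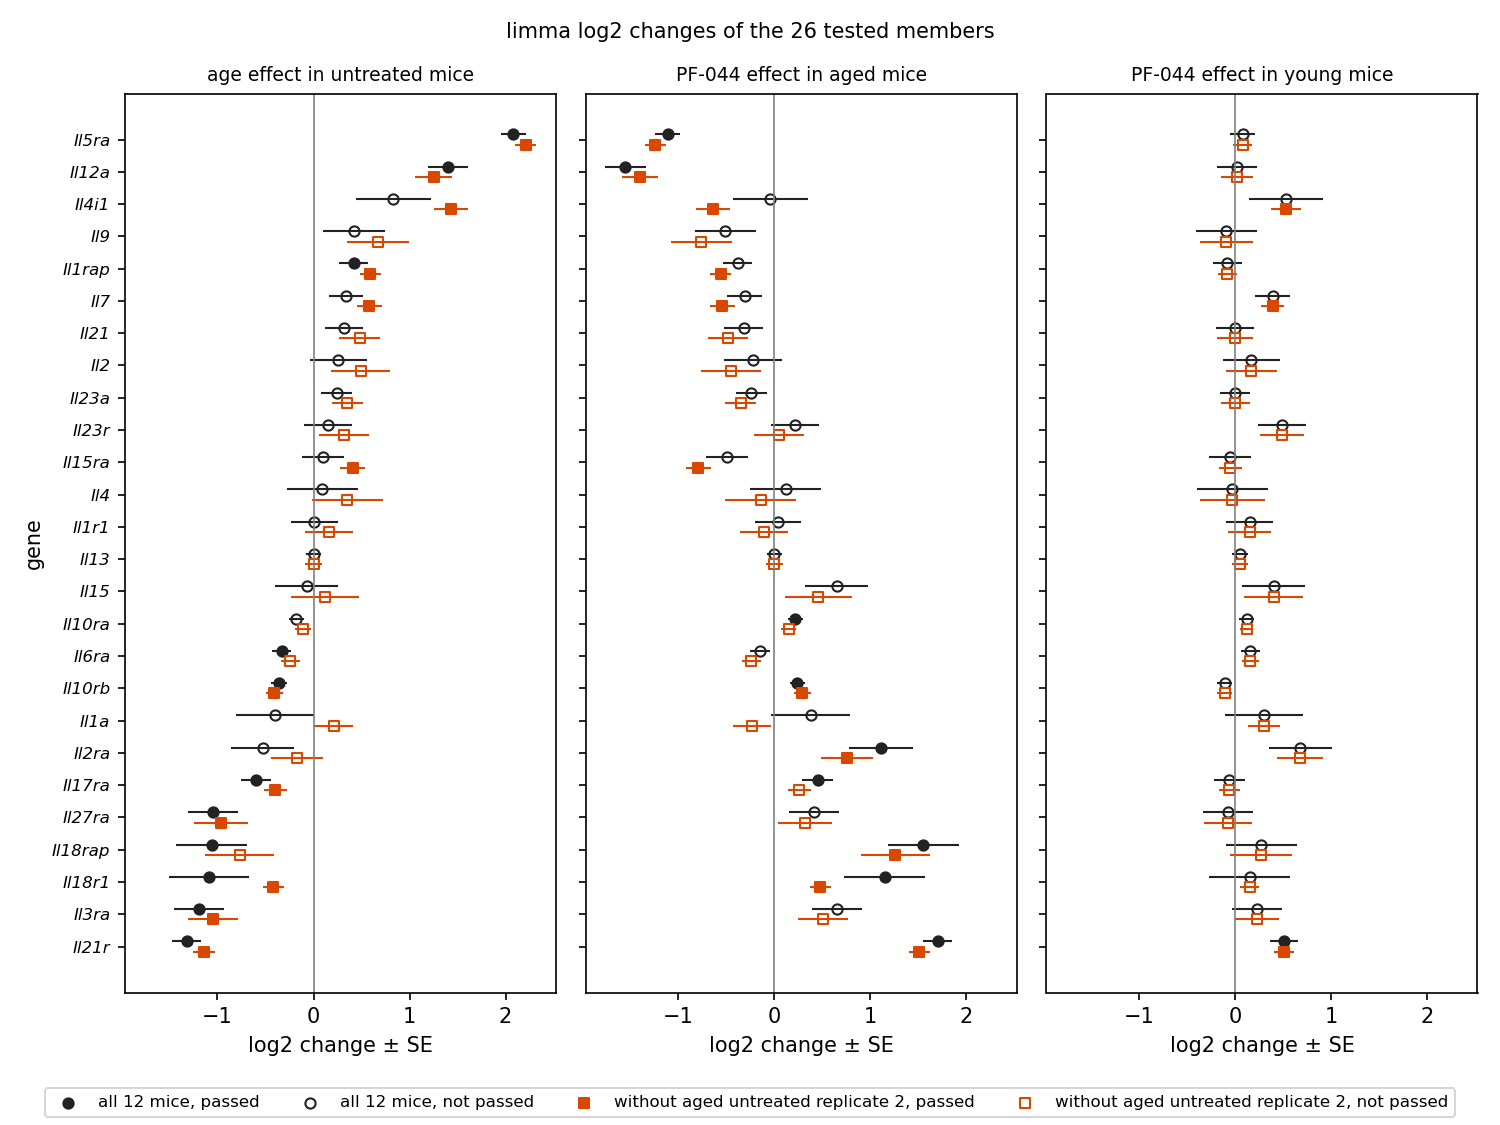
The limma log2 change ± SE of each of the 26 tested genes for age in untreated mice and for PF-044 in aged and in young mice, with all 12 mice (black) and without aged untreated replicate 2 (orange). Filled marks passed at an adjusted p of 0.05; Il5ra and Il21r passed in opposite directions in the first 2 panels under both settings.

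Il12a encodes p35, which pairs with the product of Il12b to form interleukin-12, a cytokine that drives T cells and natural killer cells to make interferon gamma. It measured 5.20, 5.88 and 5.40 in young untreated mice, 5.49, 5.59 and 5.44 in young mice given PF-044, 6.75, 7.19 and 6.73 in aged untreated mice, and 5.48, 5.38 and 5.15 in aged mice given PF-044. The 3 aged untreated mice lay above all 9 others, and the other groups overlapped. The rise with age was 1.40 on the log2 scale (SE 0.21, limma adjusted p 0.00012), and the change with PF-044 in aged mice was -1.55 (SE 0.21, limma adjusted p 0.00012). In young mice the PF-044 change was 0.02 (SE 0.21), and the difference of the effects was -1.57 (SE 0.30, limma adjusted p 0.0023).

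The count equivalents behind Il12a, which are not corrected for depth, did not separate the groups. They were 43, 69 and 54 in young untreated mice and 69, 32 and 58 in aged untreated mice. In young and aged mice given PF-044 they ran from 45 to 65 and from 40 to 50. The step of its gene set was 1.56, 4.57 and 1.83 in the aged untreated mice, above the 0.74 to 0.97 of the other 9. A step applies to every gene of its set, and count equivalents give no comparison between groups. The other scalings given above, which kept the Il12a calls for age and for PF-044 in aged mice, acted on all genes of a sample together. The part of the step of this gene set in the Il12a difference was not tested. Its partner Il12b was at the floor in all 12 samples.

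The remaining ligands were low. Il1a, which encodes interleukin-1 alpha, was above the floor in 11 samples, at 5.75 to 6.39, and at the floor in aged untreated replicate 2, with no call in any comparison. Il15, which sustains natural killer cells and memory T cells, was above the floor in 9 samples, at 4.88 to 5.70. Il7, a growth factor of lymphocytes, was above it in 9 samples, at 4.40 to 5.06.

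A group of 5 ligands was above the floor in 1 aged untreated mouse alone of its group. In aged untreated replicate 1, Il2 measured 5.69, Il4 5.88, Il9 5.85, Il21 5.28 and Il23a 5.03, while all 5 were at the floor in replicates 2 and 3. The count equivalents were 42, 48, 37, 25 and 21. For 6 of the 10 tested ligands this mouse had the highest value of all 12. Its own limit was 4.62 for Il2 and Il4 and 4.96 for Il9, Il21 and Il23a, so it could show no lower value above the floor. The limits of replicate 2, 6.25 and 6.51, lay above all 5 values, and the 5.19 of replicate 3 lay above that of Il23a. The floor in replicate 2, and for Il23a in replicate 3, thus does not show a lower level than in replicate 1. Il2 and Il4 were also above the floor in 8 and 9 mice of the other groups. Il21 and Il23a were above it in this mouse alone, and Il9 also in young untreated replicate 3, at 4.60. Il13 was above the floor only in young PF-044 replicate 3, at 4.47 with 23 count equivalents. None of these 6 ligands passed in any comparison.

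Il5ra had the largest change with age among the 26 genes. Its product binds interleukin-5, pairs with the common beta chain, and is known on eosinophils and on the B-1 cells of the mouse peritoneal cavity. It measured 6.45, 6.59 and 6.44 in young untreated mice (6.49 ± 0.09, SD, n = 3) and 6.67, 6.51 and 6.53 in young mice given PF-044 (6.57 ± 0.09). Aged untreated mice had 8.78, 8.31 and 8.62 (8.57 ± 0.24), and aged mice given PF-044 had 7.57, 7.39 and 7.41 (7.46 ± 0.10). The aged untreated mice were highest, the aged mice given PF-044 lay between them and the young mice, and these 3 levels did not overlap, while the young groups overlapped. The rise with age was 2.08 (SE 0.13, limma adjusted p 8.7e-08), a 4.21-fold difference. PF-044 in aged mice lowered Il5ra by a change of -1.11 (SE 0.13, limma adjusted p 4.2e-05), and in young mice the change was 0.08 (SE 0.13, limma adjusted p 0.84). The effects differed by -1.19 (SE 0.18, limma adjusted p 0.0007). Aged mice given PF-044 were 0.96 above young untreated mice (SE 0.13, limma adjusted p 0.00014).

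The count equivalents of Il5ra were 85 to 116 in young untreated mice, 76 to 118 in young mice given PF-044, 382, 68 and 299 in aged untreated mice, and 204 to 230 in aged mice given PF-044. The 68 of aged untreated replicate 2, the mouse with the fewest counts, lay below all mice of the other groups. Over all alternatives the age change stayed between 1.92 and 2.48 and the PF-044 change in aged mice between -1.34 and -1.01. Of 3 B cell genes, Ms4a1 and Blk changed in the direction of Il5ra and Btk in the opposite one. The summed linear level of the 3 was 6743 to 8054 in young untreated mice, 6602 to 9790 in young mice given PF-044, 38175 to 43699 in aged untreated mice and 18990 to 22807 in aged mice given PF-044. Most of this sum is Ms4a1, at 15.33, 15.20 and 15.11 on the log2 scale in aged untreated mice, against 10.80 to 10.87 for Blk and 9.62 to 9.75 for Btk. With age, Ms4a1 and Blk rose and Btk fell, and with PF-044 in aged mice Btk rose and the other 2 fell. Of 4 eosinophil genes, the defining Epx and Prg2 were at the floor in all 12 samples, 0 passed with age, and the sum was 80 to 136 in aged untreated mice and 86 to 100 in young untreated mice. The part of B cells in the Il5ra result was not tested.

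Il21r moved the opposite way. Its product pairs with the common gamma chain and is known on lymphocytes and myeloid cells. It measured 8.21, 8.27 and 8.10 in young untreated mice (8.20 ± 0.09, SD, n = 3) and 8.75, 8.68 and 8.69 in young mice given PF-044 (8.71 ± 0.04). Aged untreated mice had 7.24, 6.51 and 6.87 (6.88 ± 0.37), and aged mice given PF-044 had 8.69, 8.42 and 8.61 (8.57 ± 0.14). The aged untreated mice were below all others, and the aged mice given PF-044 lay above all young untreated mice and overlapped the young mice given PF-044. The change with age was -1.32 (SE 0.15, limma adjusted p 1.2e-05). With PF-044 it was 1.70 in aged mice (SE 0.15, limma adjusted p 5.2e-06) and 0.51 in young mice (SE 0.15, limma adjusted p 0.041). The effects differed by 1.19 (SE 0.21, limma adjusted p 0.0017).

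The call of Il21r in young mice was lost in 9 of 12 fits that each left out 1 mouse, with an adjusted p of up to 0.14 (all but those without aged PF-044 replicate 2 or aged untreated replicate 1 or 2), while the other 3 calls of Il21r were kept in all 12. Against young untreated mice, aged mice given PF-044 were 0.38 higher (limma adjusted p 0.074), and this passed without aged untreated replicate 2 (0.011). Count equivalents were 329 to 368 in young untreated mice, 428 to 452 in young mice given PF-044, 123, 24 and 88 in aged untreated mice and 414 to 458 in aged mice given PF-044. Count equivalents are not corrected for depth, so they give no comparison between groups. Beside it, the 14 T cell markers of the panel summed to 3195 to 3468 in young untreated mice, 2741 to 2983 in young mice given PF-044, 1257 to 1436 in aged untreated mice and 2523 to 2725 in aged mice given PF-044. All 14 fell with age and all 14 rose with PF-044 in aged mice, beside 32.9% and 25.7% of all genes tested. The part of T cells, and that of the macrophage markers given above, in the Il21r result was not tested.

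**Figure D4:**
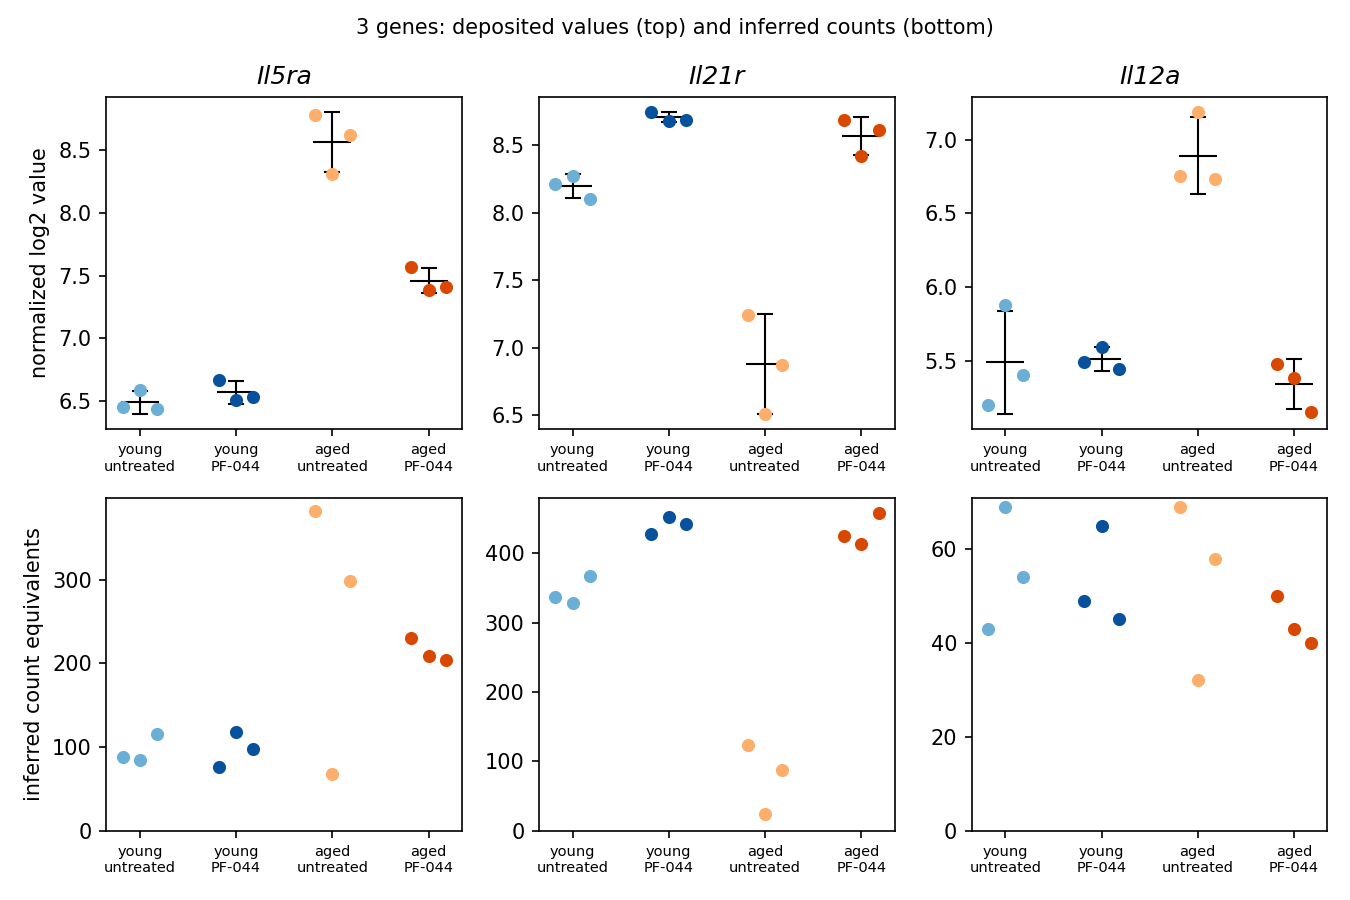
Normalized log2 expression (top) and inferred count equivalents (bottom) of Il5ra, Il21r and Il12a in each of the 12 mice by group, with lines at the mean ± SD of 3 mice in the top row. On the normalized scale Il5ra is highest and Il21r lowest in aged untreated mice, while the count equivalents, which are not corrected for depth, overlap between groups for Il12a and for Il5ra (68 in aged untreated replicate 2).

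The receptors of interleukins 6, 10 and 17 changed by smaller amounts. Il6ra, the ligand-binding chain for interleukin-6, measured 10.18, 10.07 and 10.04 in young untreated mice, 10.41, 10.15 and 10.21 in young mice given PF-044, 9.82, 9.58 and 9.90 in aged untreated mice, and 9.63, 9.46 and 9.76 in aged mice given PF-044. Both aged groups lay below both young groups, and the aged groups overlapped. Aged mice given PF-044 were lower than young untreated mice by a change of -0.48 (SE 0.10, limma adjusted p 0.0027). The age change was -0.33 (SE 0.10, limma adjusted p 0.014), which did not pass without aged untreated replicate 2 (-0.24, limma adjusted p 0.057) or young untreated replicate 1 and was 0.07 when samples were centred on reference genes. PF-044 in aged mice gave -0.15 (limma adjusted p 0.27).

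Il10rb is the signalling chain that the interleukin-10 receptor shares with that of interleukin-22. It measured 10.02, 9.88 and 9.91 in young untreated mice, 9.85, 9.77 and 9.85 in young mice given PF-044, 9.61, 9.67 and 9.45 in aged untreated mice, and 9.81, 9.67 and 9.96 in aged mice given PF-044. Aged untreated mice were below both young groups and reached up to the lowest aged treated mouse, at 9.67 in both groups to the digits given, without overlap. The changes were -0.36 with age (SE 0.08, limma adjusted p 0.0019) and 0.24 with PF-044 in aged mice (limma adjusted p 0.029). The effects of PF-044 differed by 0.35 (SE 0.11, limma adjusted p 0.035), a call lost in 8 of 12 fits without 1 mouse (all but those without aged PF-044 replicate 2, aged untreated replicate 1 or 2, or young untreated replicate 2). The call for PF-044 in aged mice was lost without aged PF-044 replicate 1 or 3 or aged untreated replicate 3 (limma adjusted p up to 0.12). Centred on reference genes, the age change of Il10rb was 0.04.

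Il10ra, the chain that binds interleukin-10, ran from 8.72 to 8.86 in young untreated mice, from 8.87 to 9.03 in young mice given PF-044, from 8.48 to 8.73 in aged untreated mice and from 8.73 to 8.92 in aged mice given PF-044. Its PF-044 change in aged mice was 0.22 (SE 0.08, limma adjusted p 0.048), lost in 9 of 12 fits without 1 mouse (all but those without aged PF-044 replicate 3, aged untreated replicate 3 or young PF-044 replicate 1) and -0.01 when centred on reference genes. Age gave -0.18 (limma adjusted p 0.078).

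Il17ra, a chain that receptors of the interleukin-17 family share, measured 8.10, 7.72 and 7.89 in young untreated mice, 7.79, 7.87 and 7.86 in young mice given PF-044, 7.59, 6.92 and 7.42 in aged untreated mice, and 7.87, 7.59 and 7.82 in aged mice given PF-044. Aged untreated mice were below both young groups and reached 7.59, the lowest value of the aged treated mice to the digits given. The age change was -0.60 (SE 0.16, limma adjusted p 0.0076), kept in all 12 fits without 1 mouse. PF-044 in aged mice gave 0.45 (SE 0.16, limma adjusted p 0.042), and 0.26 without aged untreated replicate 2 (limma adjusted p 0.10). That call was lost in 7 of 12 such fits, also without aged PF-044 replicate 1 or 3, any young mouse given PF-044, or young untreated replicate 3.

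In the interleukin-1 family, Il1rap rose with age and the chains of the interleukin-18 receptor fell. Il1rap, the accessory chain without which the interleukin-1 receptor does not signal, was singled out after its values were seen. It measured 7.27, 7.20 and 7.32 in young untreated mice, 7.30, 7.22 and 7.03 in young mice given PF-044, 7.85, 7.32 and 7.87 in aged untreated mice, and 7.22, 7.43 and 7.23 in aged mice given PF-044. Aged untreated replicates 1 and 3 were above all others, and replicate 2 met the highest young value. The age change was 0.42 (SE 0.15, limma adjusted p 0.033) and the PF-044 change in aged mice was -0.38 (limma adjusted p 0.06). Without aged untreated replicate 2 these were 0.59 (limma adjusted p 0.00055) and -0.56 (limma adjusted p 0.0014). The age call was lost without aged untreated replicate 1 or 3 or any young untreated mouse (limma adjusted p up to 0.11). Il1r1, the signalling receptor of interleukin-1, was above the floor in 9 samples, at 4.41 to 5.22, with no call.

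Il18r1 binds interleukin-18 and Il18rap is its accessory chain; the genes are neighbours on chromosome 1. Il18r1 measured 6.75, 6.72 and 6.75 in young untreated mice, 6.82, 7.03 and 6.82 in young mice given PF-044 and 6.74, 6.78 and 6.89 in aged mice given PF-044. Aged untreated mice had 6.31, the floor and 6.33. The aged untreated mice were below all others, by a margin that the floored value enlarges. The changes were -1.09 with age (SE 0.42, limma adjusted p 0.044) and 1.15 with PF-044 in aged mice (limma adjusted p 0.045). Without aged untreated replicate 2 they were -0.42 (limma adjusted p 0.0057) and 0.48 (limma adjusted p 0.004). Both calls of Il18r1 were lost in the 9 fits that left out a mouse of another group (limma adjusted p up to 0.11) and kept in the 3 that left out an aged untreated mouse.

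Il18rap measured 5.96, 5.83 and 6.10 in young untreated mice, 6.29, 6.17 and 6.25 in young mice given PF-044 and 6.51, 6.34 and 6.50 in aged mice given PF-044, against 6.06, the floor and the floor in aged untreated mice. Its only measured aged untreated value lay within the young untreated range. A value at the floor in aged untreated replicate 2 is only below 6.51, and no other mouse lay above that limit. The age change was -1.06 (limma adjusted p 0.031) and did not pass without aged untreated replicate 2 (-0.77, limma adjusted p 0.09), aged untreated replicate 3 or any young untreated mouse. With PF-044 in aged mice it was 1.55 (limma adjusted p 0.0058), and 1.26 without that mouse (limma adjusted p 0.016). With floored values set to the lowest value their sample showed, the changes were -0.04 and 0.53, and neither passed (limma adjusted p 0.88 and 0.073). Beside both genes, 7 natural killer cell markers summed to 737 to 840 in young untreated mice and 646 to 825 in young mice given PF-044. The sums were 381 to 564 in aged untreated mice and 950 to 1011 in aged mice given PF-044. Of the 7, 4 were lower with age and 2 higher with PF-044 in aged mice, beside 32.9% and 25.7% of all genes tested. The 2 higher were Klrk1 and Klrd1, while Ncr1 and Gzma were at the floor in all aged mice, treated or not. The part of these markers in the result was not tested.

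Of the other receptors, Il3ra and Il27ra fell with age and Il2ra rose with PF-044 in aged mice, each with floored values in aged untreated mice. Il3ra, the interleukin-3 receptor alpha chain, measured 5.94, 5.83 and 5.60 in young untreated mice, 6.13, 5.65 and 6.27 in young mice given PF-044 and 5.01, 5.51 and 5.23 in aged mice given PF-044, against 5.16, the floor and the floor. Every measured value of an aged mouse was below every young mouse, while a value at the floor in aged untreated replicate 2 is only below 6.54. The age change was -1.19 (SE 0.26, limma adjusted p 0.0018). Il27ra, the chain that binds interleukin-27 beside gp130, measured 5.57, 5.77 and 5.36 in young untreated mice and 4.90, the floor and the floor in aged untreated mice, a change of -1.05 (SE 0.26, limma adjusted p 0.0046). Its values were 5.56, 5.38 and 5.56 in young and 4.81, 5.54 and 4.44 in aged mice given PF-044. Beside these falls, 9 mast cell markers summed to 10510 to 11919 in young untreated mice, 11696 to 14659 in young mice given PF-044, 5634 to 6295 in aged untreated mice and 6345 to 9134 in aged mice given PF-044. Of them 7 fell with age and 4 rose with PF-044 in aged mice, beside 32.9% and 25.7% of all genes tested. The part of the mast cell markers, and that of the T cell markers given above, in the results for Il3ra, Il27ra and Il2ra was not tested. Both falls passed without aged untreated replicate 2 (-1.05 and -0.96). With floored values at their sample's lowest value they were -0.32 and -0.18, and neither passed.

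Il2ra, the alpha chain that raises the affinity of the interleukin-2 receptor, measured 5.10, 5.72 and 5.86 in young untreated mice, 5.91, 6.43 and 6.40 in young mice given PF-044, 5.51, the floor and 5.27 in aged untreated mice, and 6.28, 6.41 and 5.74 in aged mice given PF-044. Both treated groups lay above the measured values of their untreated counterparts, and the value at the floor in aged untreated replicate 2 is only below 6.25. PF-044 in aged mice gave 1.11 (SE 0.33, limma adjusted p 0.018), and 0.76 without aged untreated replicate 2 (limma adjusted p 0.039), and it was lost without aged PF-044 replicate 1 or 2 (limma adjusted p up to 0.064). In young mice the change was 0.68 (SE 0.33, limma adjusted p 0.22). The difference of the effects was 0.43 (limma adjusted p 0.55). With the floored value at its sample's limit, the change in aged mice was 0.47 and did not pass (limma adjusted p 0.15).

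Another 3 genes did not pass with all 12 mice and passed without aged untreated replicate 2. They were singled out after their values were seen. They also passed for age and for PF-044 in aged animals when floored values were set to their sample's lowest value. That setting lends them no support, because it raises a floored value of aged untreated replicate 2 to 6.25, 6.54 or 6.51. Il13, at the floor in all aged and all young untreated mice, passed both comparisons under it (1.20 and -1.18). Il4i1 measured 4.62, 4.67 and 4.75 in young untreated mice, 5.36, 5.28 and 4.99 in young mice given PF-044, 6.34, the floor and 5.87 in aged untreated mice, and 5.28, 5.45 and 5.67 in aged mice given PF-044. Its measured values were highest in aged untreated mice and lowest in young untreated mice. Without replicate 2 the age change was 1.43 (SE 0.18, limma adjusted p 3.4e-05) and the PF-044 change in aged mice was -0.64 (SE 0.18, limma adjusted p 0.013); with all 12 mice they were 0.83 (limma adjusted p 0.096) and -0.04. Il15ra, the chain that presents interleukin-15, measured 4.79 to 4.89 in young untreated mice and 4.75 to 4.87 in young mice given PF-044. In aged mice it measured 5.45, the floor and 5.04 untreated and 4.39 to 4.49 with PF-044. Its PF-044 change in aged mice was -0.79 without replicate 2 (limma adjusted p 0.00056) and -0.49 with it (limma adjusted p 0.10). Il7 gave 0.58 with age and -0.54 with PF-044 in aged mice without replicate 2, against 0.34 and -0.31 with it.

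Genes related to interleukin signalling were described from a list of 22 in the panel, of which 20 were tested. Of these, 18 act inside the cell, and the others are the secreted factor Csf1 and its receptor Csf1r, which is also a macrophage marker; the secreted Tslp and Csf2 were at the floor. With age 3 rose (among them Csf1) and 12 fell (among them Csf1r), with a median change of -0.46, against -0.07 over all genes, of which 21.2% rose and 32.9% fell. With PF-044 in aged mice 9 rose and 3 fell, with a median of 0.36, beside 25.7% and 15.2% of all genes. Of the 18 intracellular genes, 2 rose and 11 fell with age, and 8 rose and 2 fell with PF-044 in aged mice. Centred on reference genes, 5 of these 18 rose and 5 fell with age, and 4 rose and 6 fell with PF-044 in aged mice. Over all 20 genes, that centring gave 6 and 6 for age and 5 and 7 for PF-044 in aged mice. The median of all genes tested was then 0.34 and -0.21. With the deposited scaling, 2 of the 20 rose and 1 fell with PF-044 in young mice, beside 8.4% and 5.71% of all genes. Without aged untreated replicate 2 the counts over the 20 were 3 and 11 for age and 10 and 5 for PF-044 in aged mice. Stat3, which acts downstream of interleukins 6, 10 and 21, measured 10.19 to 10.21 in young untreated mice, 9.26, 9.21 and 9.52 in aged untreated mice, and 9.98, 9.80 and 10.01 in aged mice given PF-044. Its changes were -0.86 with age (SE 0.08, limma adjusted p 1.8e-06) and 0.60 with PF-044 in aged mice (SE 0.08, limma adjusted p 8.5e-05). Stat5b, downstream of interleukins 2, 3 and 5, changed by -0.93 and 0.76, and Stat6, downstream of interleukin-4, by -0.63 and 0.44, all 4 past the threshold. These changes of Stat3, Stat5b and Stat6 also passed in the same direction when centred on reference genes. Jak2, the kinase of the common beta chain receptors, was lower with PF-044 in both ages, by a change of -0.42 in each (limma adjusted p 7.1e-05 in aged and 0.00069 in young mice).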

How the data were processed

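Peritoneal macrophages of 12 mice were measured on the NanoString nCounter after a spin-column RNA extraction, per the labels. The deposited values are normalized expression on the log2 scale, and the sources used here do not state how the authors normalized or set the floor. Limma is the tool in the submitters' processing notes, without a version. The series states 3 mice per group, so replicates are separate mice. Groups came from the sample labels.

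Members and lists were chosen with earlier results of these data known. Genes at the floor of 20 linear units in all samples were left out, and 1190 entered a limma fit (version 3.58.1, R 4.3.3; eBayes with trend) with a coefficient per group, 8 residual and 3.27 prior degrees of freedom, and Benjamini-Hochberg adjustment over the 1190 genes of each of 5 contrasts. The fit was tested on simulated data with a common floor. These data held no limit particular to a sample, so they cannot judge calls that rest on floored values. A step was sought per sample and gene set (of 657, 368 and 165 genes). Above the floor, 11911 of 11921 values (99.9%) lay on a whole multiple within 0.008 linear units, as did all 241 such values of the members. Count equivalents are inferred from the values, and counting error beyond them is unknown.

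Named genes are members that passed in some contrast with a change of at least 1, and a set of receptors and ligands if above the floor; others are said to be chosen after their values were seen. Replicate numbers were not taken to pair mice: of 18 pairs with the same number, 5 had residuals that correlated over 0.1 (range -0.15 to 0.33). The alternatives were other filters, floors, scalings and fits, and leaving out each mouse. Promoter sequences are RefSeq's on GRCm38.p6, and symbols were matched to its gene table. A marker gene of the lists is not reported here.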

Additional observations from a re-analysis of the deposited data

Results flagged for a closer look

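For 4 genes the effect of PF-044 differed between aged and young mice by the test of the difference itself (limma, aged minus young). Il5ra differed by -1.19: it was lower with PF-044 in 3 of 3 aged mice than in every aged untreated mouse, while the young groups overlapped. Il21r differed by 1.19, with higher values in treated than in untreated mice at both ages. Il12a differed by -1.57 on normalized values. Its count equivalents, which are not corrected for depth, overlapped between all groups, as those of Il5ra did for aged untreated replicate 2 (68). Il10rb differed by 0.35, the smallest of the 4, and this call was lost in 8 of 12 fits without 1 mouse.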

How the results depend on the processing

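The 5 contrasts gave 27 calls of a gene, and 16 of these passed in every fit that left out 1 mouse. The 3 that changed direction did so when samples were centred on 4 reference genes (Gapdh, Gusb, Hprt and Pgk1): Il10ra with PF-044 in aged mice became -0.01, Il10rb with age 0.04 and Il6ra with age 0.07. For age, 11 genes passed, against 7 among genes above the floor in all samples, 7 with a common floor of 100 and 20 with floored values at their sample's lowest value, an alternative chosen after seeing the data that gives bounds rather than levels. For PF-044 in aged mice, 9 became 5 with no filter, 4 with only the contrast's groups and 17 with floored values at that limit. For PF-044 in young mice, 1 became 0 with no filter, 0 on reference genes, 0 with eBayes without trend and 4 with only the contrast's groups. For the difference, 4 became 8 with floored values at the limit. For aged mice given PF-044 against young untreated mice, 2 became 4 with quantile normalization, 7 with only the contrast's groups and 4 at that limit. Leaving out each mouse in turn gave 7 to 12, 4 to 11, 0 to 3, 3 to 9 and 2 to 5 calls in the order above. With the replicate number as a block, 11, 9, 1, 4 and 2 genes passed and all 27 calls were kept. The pairs of gene and contrast that did not pass were followed only in part. For 43 of them, 903 alternative fits gave 33 calls and 40 changes of sign. These are not totals over all pairs that did not pass, and the remaining pairs were not counted in this way. Depth limits the low genes most in aged untreated replicate 2, with 175127 count equivalents.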
